A study of Mus musculus with 8 samples.

Results

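The genes examined here encode forkhead (Fox) and Sox transcription factors. They were all protein-coding genes of GENCODE M21 whose names are Fox followed by a letter and a number, which gave 44 genes, or Sox followed by a number, with Sox1 and Sox2 left out, which gave 17. These 61 genes are among 21951 protein-coding genes in all. A gene was counted in a library where at least 1 deposited peak shared 20 bp or more with the 1000 bp to either side of any annotated transcript start of that gene, a stretch called the promoter throughout. The choice of genes used names alone and no measured value.

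The peaks come from chromatin immunoprecipitation with sequencing (ChIP-seq) of mouse E14Tg2a embryonic stem cells, an established line, at passages 37 to 40 in all 8 libraries. Pluripotent cells kept with leukemia inhibitory factor (LIF), called ESCs, were compared with LIF-free monolayers given 1 µM retinoic acid (RA) for 48 h to drive them towards neuronal cells, called NCs. ESCs gave 1 library each for FGFR1, RXR (RXRα in the titles, RXR in the antibody label) and Nur77, and NCs gave 1 each for RXR, Nur77 and the histone variant H3.3, plus 2 for FGFR1. Each library came from pooled plates of this line, no untreated LIF-free cells are among the groups, and the labels name no input or other control library.

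Forkhead proteins bind DNA through a winged-helix domain and Sox proteins through an HMG box that bends the helix, and several members of each family can open or prepare chromatin for other factors. Both families set cell fates during development: Foxa and Sox17 in endoderm, Foxc and Foxf in mesoderm, Foxd3, Sox8, Sox9 and Sox10 in the neural crest, Sox3, Sox4, Sox11 and Sox21 in the nervous system. FGFR1 is a membrane receptor for fibroblast growth factors that also occurs in the nucleus, RXR is a nuclear receptor that pairs with the retinoic acid receptors, and Nur77 is an orphan nuclear receptor that can pair with RXR.

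The 8 lists held between 10634 and 46137 peaks. The lists give no depth, but the fold and p-value of each peak could be solved for the fragments behind it, which gave a background of between 1.27 and 7.09 fragments per kb across the libraries. RXR in ESCs was the highest at 7.09 and RXR in NCs stood at 1.87, while FGFR1 was at 2.71 in ESCs and at 4.16 and 6.78 in the NC libraries 1 and 2, and Nur77 was at 4.98 and 3.82. The second FGFR1 library from NCs stood apart in shape, with a median peak width of 311 bp and a median of 27 fragments at the summit, against 89 bp and 10 fragments in the first. Apart from FGFR1 in NCs each group is 1 library, so no difference between groups was tested.

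At least 1 promoter peak was listed for 34 of the 44 Fox genes and 16 of the 17 Sox genes, against 65.5% of all protein-coding genes. A Fox gene had promoter peaks in a median of 1.5 libraries and a Sox gene in a median of 2, against 2 for all protein-coding genes. In all, 161 peaks lay at these promoters, 126 at Fox and 35 at Sox genes. Their strength is given as the deposited -log10 p, which compares the fragments at a summit with the background around it and rises with depth, and no peak under 5 was listed. The map of the strongest promoter peak by gene and library shows a few rows filled across factors, such as Foxj3, Foxn2 and Foxp1, and many rows with a single entry.

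**Figure D1:**
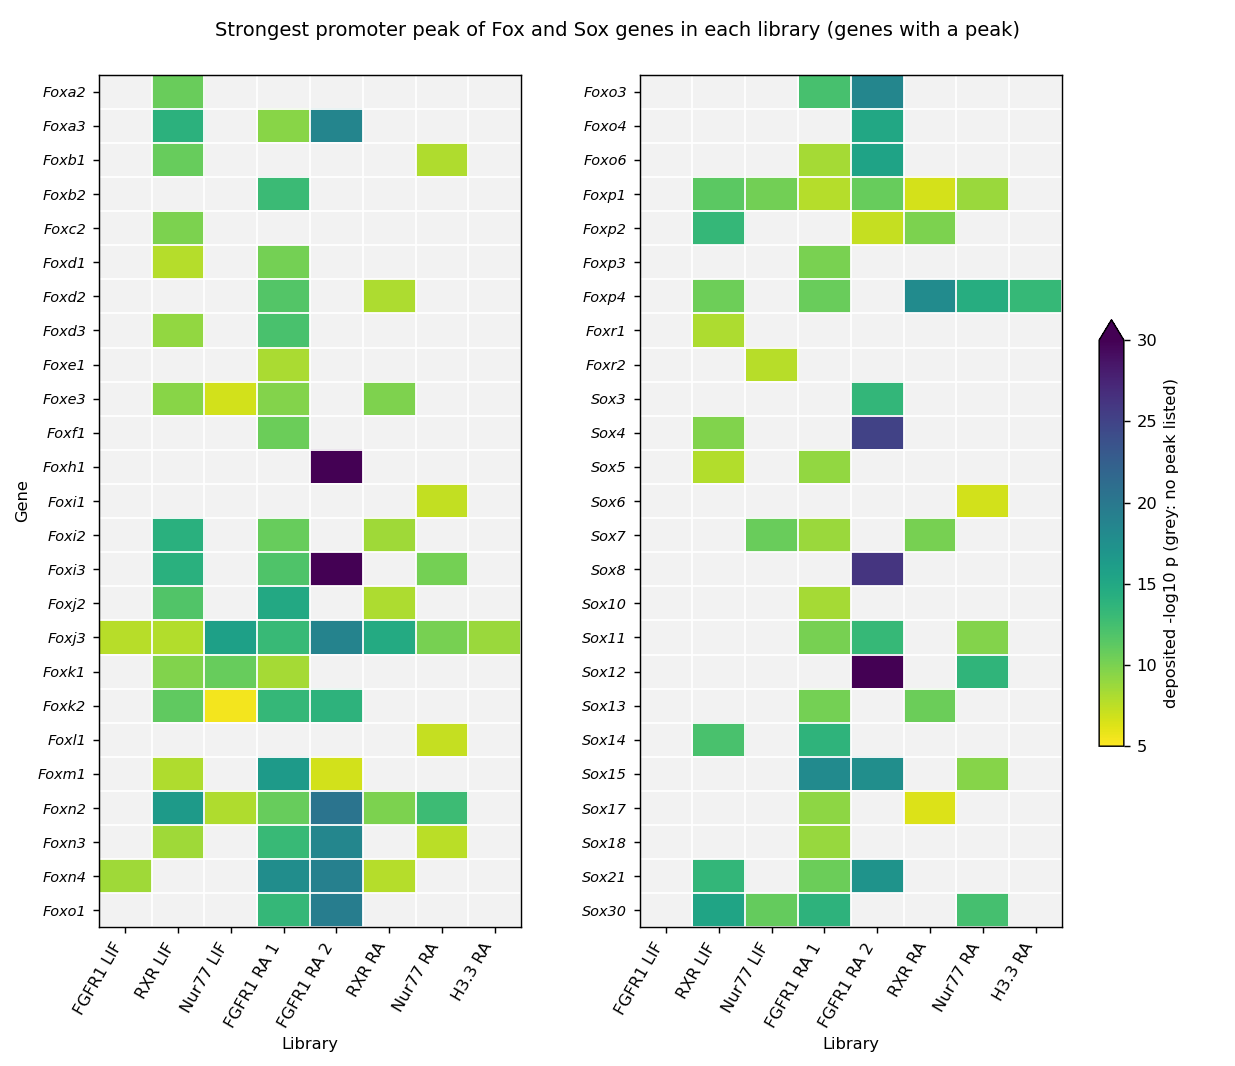
Strongest promoter peak of each of the 50 genes with a promoter peak in some library (rows) in each of the 8 libraries (columns). Colour gives the deposited -log10 p, the scale stops at 30 and grey marks no listed peak. Foxj3 is the row with a peak in 8 libraries, and the Sox rows are empty for FGFR1 in ESCs and for H3.3.

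FGFR1 was listed at few of these promoters in ESCs and at many in NCs. Its ESC list reached 2 Fox genes, Foxj3 and Foxn4, and 0 Sox genes, where it reached 17.0% of all protein-coding genes. In NCs, library 1 listed 24 Fox and 11 Sox genes, against 50.7% of all protein-coding genes, and library 2 listed 15 Fox and 7 Sox genes, against 49.6%. The mean over both NC libraries was 19.5 ± 6.36 Fox genes and 9 ± 2.83 Sox genes (SD, n = 2), or 44.3 ± 14.5% of Fox and 52.9 ± 16.6% of Sox genes. Both NC libraries therefore lay above the ESC library for both families, as they did for all protein-coding genes, where the mean share was 50.2 ± 0.786%. With only the 11378 strongest peaks of each list, NC library 1 kept 3 Fox genes and 1 Sox gene and NC library 2 kept 12 and 7, beside the unchanged 2 and 0 in ESCs. All protein-coding genes then stood at 18.9% in library 1, 44.7% in library 2 and 17.0% in ESCs, so library 1 fell over all genes too. Its fall was steeper at the members, to 3 of 44 Fox and 1 of 17 Sox genes. Both families thus went from above the share of all genes in library 1 to below it. With fragments scaled to the background of the ESC library, the NC libraries stood at 24 and 13 Fox genes and 11 and 7 Sox genes. The shares of all protein-coding genes were then 50.1% and 46.3%.

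RXR had the reverse order. In ESCs it was listed at 20 Fox and 5 Sox genes, against 42.5% of all protein-coding genes, and in NCs at 10 Fox and 3 Sox genes, against 23.3%. The library from ESCs had the higher background, and when its fragments were scaled to the background of the NC library only 2 Fox and 0 Sox genes kept a peak, together with 7.39% of all protein-coding genes. The order of ESCs and NCs thus turned with that scaling, which was chosen after seeing the data, and the part of depth in it cannot be told apart from that of the treatment.

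Nur77 reached 7 Fox and 2 Sox genes in ESCs, against 25.5% of all protein-coding genes. In NCs it reached 9 Fox and 5 Sox genes, against 25.8%. H3.3, measured in NCs only, was listed at the promoters of Foxj3 and Foxp4 and of 0 Sox genes, against 15.5% of all protein-coding genes. At a stricter limit of -log10 p of at least 10, Nur77 stood at 3 Fox genes in ESCs and 4 in NCs and at 2 Sox genes in both, against 12.4% and 14.0% of all protein-coding genes.

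**Figure D2:**
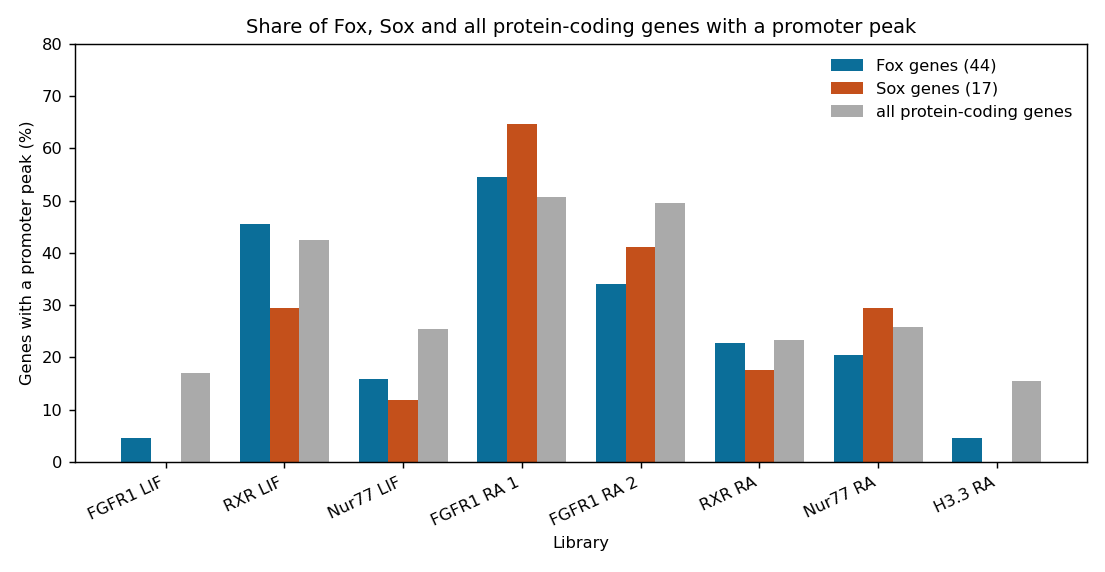
Share of Fox genes (of 44), Sox genes (of 17) and all protein-coding genes with a promoter peak, in percent, for each library. Fox and Sox bars are well under the grey bars for FGFR1 in ESCs and for H3.3, also under them for Nur77 in ESCs and for FGFR1 library 2 and RXR in NCs, and both above them for FGFR1 library 1.

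Of 8 related HMG-box genes outside the Sox family (Tcf7, Tcf7l1, Tcf7l2, Lef1, Sry, Bbx, Cic and Hbp1), 0 had FGFR1 in ESCs, where the share of all protein-coding genes was 17.0%. FGFR1 was listed at 4 of the 8 in each NC library, against 50.7% and 49.6%, and RXR in ESCs at 4, against 42.5%. RXR in NCs, Nur77 in either state and H3.3 were each listed at 1 of them, where the shares of all protein-coding genes were 23.3% for RXR, 25.5% and 25.8% for Nur77 and 15.5% for H3.3.

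The stretches below carry the sites that most libraries shared, or that the strongest peaks marked, at Fox genes. Each is printed along the strand of its gene from GRCm38 (mm10), with the bases that lie inside the peaks of every library named in capitals (for Foxh1, the bases nearest to the summit), and none runs into an annotated UTR.
Foxj3, intron, chr4:119539424-119539514, plus strand, shared by Nur77 in ESCs and by both FGFR1 libraries, RXR, Nur77 and H3.3 in NCs: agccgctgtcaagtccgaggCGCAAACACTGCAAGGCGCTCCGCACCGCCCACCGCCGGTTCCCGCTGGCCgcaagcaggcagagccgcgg
Foxn2, upstream, chr17:88440304-88440397, plus strand, shared by RXR in both states and both FGFR1 libraries from NCs: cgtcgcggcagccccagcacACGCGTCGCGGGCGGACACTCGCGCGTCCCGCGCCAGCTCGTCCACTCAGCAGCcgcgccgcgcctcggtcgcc
Foxi3, at its starts, chr6:70956489-70956586, plus strand, shared by RXR in ESCs and by both FGFR1 libraries and Nur77 in NCs: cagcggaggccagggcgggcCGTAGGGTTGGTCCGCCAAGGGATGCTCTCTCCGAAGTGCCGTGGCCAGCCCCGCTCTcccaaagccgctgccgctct
Foxn4, intron, chr5:114273609-114273687, minus strand, shared by FGFR1 in ESCs and in both NC libraries: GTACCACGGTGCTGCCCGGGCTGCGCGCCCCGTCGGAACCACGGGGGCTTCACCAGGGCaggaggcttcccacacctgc
Foxe3, coding sequence, chr4:114925840-114925905, minus strand, shared by RXR in both states, Nur77 in ESCs and FGFR1 in NC library 1: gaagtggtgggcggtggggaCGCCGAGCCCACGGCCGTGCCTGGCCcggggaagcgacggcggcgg
Foxh1, coding sequence, chr15:76669740-76669840, minus strand, around the summit of FGFR1 in NC library 2: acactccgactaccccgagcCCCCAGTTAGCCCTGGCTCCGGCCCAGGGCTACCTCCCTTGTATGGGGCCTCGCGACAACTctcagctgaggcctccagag
The capitals are 51 bases at Foxj3 with a GC content of 74.5% and 7 CpG pairs, 54 at Foxn2 with 75.9% and 11 pairs, and 58 at Foxi3 with 67.2% and 5 pairs.

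Foxj3 (ENSMUSG00000032998.16, chr4:119537004-119629119, plus strand) was the member with a promoter peak in all 8 libraries, as were 2.9% of protein-coding genes. It has 10 annotated starts, and its promoter overlaps that of the neighbouring gene Frg2f1. In ESCs its strongest FGFR1 peak had a -log10 p of 7.66, that of RXR 7.90 and that of Nur77 15.8. In NCs the FGFR1 values were 13.2 and 18.8, beside 14.7 with RXR, 10.1 with Nur77 and 8.79 with H3.3. The summits behind the shared stretch printed above lay between 119539438 and 119539520, within an intron, for 6 of the libraries. RXR in ESCs had its peaks elsewhere in the promoter. The FGFR1 peak of ESCs overlapped a Nur77 peak of NCs but did not reach the shared stretch. The gene was thus common to 8 libraries and the stretch to 6. These listings all rest on internal starts, since with only the outermost annotated start of each gene Foxj3 had a promoter peak in 0 libraries, and with peaks of -log10 p of at least 10, or with equal numbers of peaks, in 5.

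Foxn2 (chr17:88440711-88490533, plus strand) and Foxp1, a repressor of the Foxp group, each had peaks in 6 libraries. These were RXR and Nur77 in both states and FGFR1 in both NC libraries. Of all protein-coding genes, 7.29% had peaks in 6 libraries. At Foxn2 the strongest -log10 p was 16.4 for RXR and 7.99 for Nur77 in ESCs, while in NCs FGFR1 had 10.8 and 20.4, RXR 9.93 and Nur77 12.8. The RXR value in ESCs was the highest of any Fox gene in that library. The FGFR1 peak of 10.8 lay 858 bp downstream of a start, and the library 1 peaks that overlapped that of library 2 had 9.51 and 8.28. At Foxp1, which has 22 annotated starts, the strongest values ran only from 6.61 to 11.3. There Nur77 in ESCs and RXR and Nur77 in NCs met at 1 internal start, with summits 159, 126 and 146 bp downstream of it in coding sequence, whereas the peaks of RXR in ESCs and of FGFR1 lay at other starts. With 1 start per gene Foxn2 stayed at 6 libraries and Foxp1 was left with 1, and with equal numbers of peaks they had 4 and 1.

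Foxp4, of the same group, had peaks in 5 libraries, as did 8.87% of protein-coding genes. In NCs its internal start carried the strongest Fox peak of 3 lists, with a -log10 p of 18.0 (RXR), 14.5 (Nur77) and 13.2 (H3.3). These 3 peaks each held a run of alternating purines and pyrimidines of at least 20 bp. That kind of repeat was in 6 of the 161 member peaks, at Foxp4, Foxn3 and Foxp2. In NCs, 7.35% of H3.3 peaks at all protein-coding promoters held such a repeat. The shares were 7.08% with Nur77 and 5.95% with RXR. In the lists from ESCs and of FGFR1 in NCs they were between 0.932% and 6.89%. The part of the repeat in the peaks was not tested. The bases that the 3 peaks share are in capitals:
Foxp4, intron, chr17:47878924-47879067, minus strand: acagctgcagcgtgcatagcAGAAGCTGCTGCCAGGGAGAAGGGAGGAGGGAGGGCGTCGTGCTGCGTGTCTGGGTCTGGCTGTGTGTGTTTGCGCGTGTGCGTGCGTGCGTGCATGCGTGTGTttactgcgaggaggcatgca
Without peaks on such repeats H3.3 was left at 1 Fox gene, Foxj3.

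5 further Fox genes had peaks in 4 libraries, Foxe3, Foxi3, Foxk2, Foxn3 and Foxn4, against 10% of protein-coding genes. Foxe3, a regulator of the lens, had RXR at -log10 p of 9.42 in ESCs and 9.82 in NCs, Nur77 at 6.68 in ESCs and FGFR1 at 9.59 in NC library 1, with none for FGFR1 in ESCs or NC library 2. Its peaks lay in its coding sequence apart from 1 of FGFR1. Foxk2 had RXR at 11.1 and Nur77 at 5.47 in ESCs, the latter the weakest member peak in any list, and FGFR1 at 13.4 and 13.9 in NCs. Foxn3 had RXR at 8.61 in ESCs, FGFR1 at 13.2 and 18.5 and Nur77 at 7.61 in NCs. Its FGFR1 peaks of 13.2 and 18.5 lay at different starts, and the library 2 peak that overlapped that of library 1 had 12.4.

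Foxi3 (chr6:70956531-70961066, plus strand), a gene of the early ectoderm and its placodes, held the strongest peak of any member. FGFR1 in NC library 2 had a -log10 p of 47.2 there, a fold of 15.1 and 49 fragments at a summit 40 bp upstream of a start. The same stretch was listed at 11.8 for FGFR1 in NC library 1, 14.2 for RXR in ESCs and 10.3 for Nur77 in NCs, and not for FGFR1 or Nur77 in ESCs, RXR in NCs or H3.3. In that library, peaks at protein-coding promoters had a median of 22.3 and reached 251, so the Foxi3 peak stood above the median and far below the top.

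Foxn4 (chr5:114254164-114273807, minus strand), which acts in retinal and spinal cord progenitors, was the member where FGFR1 in ESCs and both NC libraries met at 1 site. The -log10 p was 8.61 in ESCs and 17.7 and 19.2 in the NC libraries, with 10, 19 and 30 fragments at the summit. The 3 summits lay 17, 35 and 64 bp downstream of a start. RXR in NCs had a separate peak 857 bp upstream.

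FGFR1 was listed in both NC libraries at 12 Fox genes (Foxa3, Foxi3, Foxj3, Foxk2, Foxm1, Foxn2, Foxn3, Foxn4, Foxo1, Foxo3, Foxo6 and Foxp1) and 3 Sox genes (Sox11, Sox15 and Sox21), where 39.5% of protein-coding genes were listed in both. The peaks of the 2 libraries shared bases at 9 Fox genes and at Sox21, against 34.2% of protein-coding genes. At Foxk2, Foxo3, Foxp1, Sox11 and Sox15 the libraries placed FGFR1 at different points of the promoter. Library 1 alone was listed at 12 Fox and 8 Sox genes, against a background of 11.3%, and library 2 alone at Foxh1, Foxo4, Foxp2, Sox3, Sox4, Sox8 and Sox12, against 10.2%. FGFR1 was listed in neither NC library at 17 Fox genes and at Sox6 and Sox9, against 39.1%.

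The 2 FGFR1 libraries from NCs also differed in the strength and place of their peaks, over all genes as over these. Peaks at all protein-coding promoters had a median -log10 p of 11.5 in library 1 and 22.3 in library 2, and a median distance of 114 and 58 bp from the nearest start. Over those promoters, 20.6% of library 1 summits and 12.7% of library 2 summits were in coding sequence. The median GC content in the 101 bp around the summit was 69.3% and 67.3%. The 24 peaks at genes listed in library 1 alone had 15 summits in coding sequence and a median -log10 p of 9.97. Their median distance from the nearest start was 342 bp and their median GC content 71.3%. The 25 library 1 peaks at genes listed in both libraries had 6 coding summits, with medians of 10.8, 305 bp and 73.3%. The 7 peaks at genes listed in library 2 alone had 2 summits in coding sequence and a median -log10 p of 25.1. Their median distance was 12 bp and their median GC content 65.3%. The 18 library 2 peaks at genes listed in both libraries had 1 coding summit, with medians of 17.4, 175 bp and 69.8%. Labels give the second library as a separate experiment, and the part of library preparation in this difference was not tested.

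**Figure D3:**
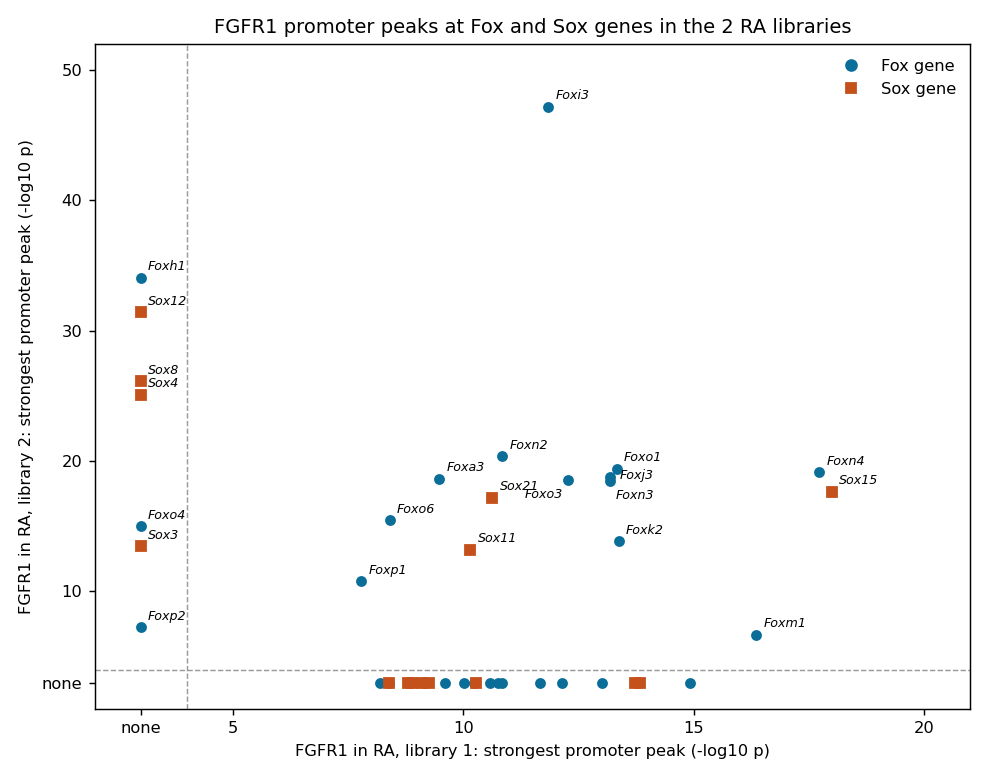
Strongest FGFR1 promoter peak (-log10 p) of each Fox gene (circles) and Sox gene (squares) in NC library 1 (horizontal) and NC library 2 (vertical), with genes listed in 1 library set on the strips marked none. Foxi3 stands at 11.8 and 47.2, and Foxh1 and Sox12 have values of 34.1 and 31.5 in library 2 and none in library 1.

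Foxh1, the forkhead partner of Smad proteins in Nodal signalling, had its only promoter peak in FGFR1 NC library 2, at a -log10 p of 34.1. Its summit lay 12 bp downstream of the inner of its 2 starts, in coding sequence. The Foxo genes, which act downstream of insulin signalling, had promoter peaks of FGFR1 in NCs and of no other list, as did 10.9% of protein-coding genes. Within the genes and outside the promoter, peaks were listed in 4 libraries at Foxo1, 7 at Foxo3 and 5 at Foxo6. All 4 promoters were listed in library 2, against 49.6% of protein-coding genes, at 19.4 for Foxo1, 18.6 for Foxo3, 15.0 for Foxo4 and 15.5 for Foxo6, and 3 in library 1, against 50.7%, at 13.3 for Foxo1, 12.3 for Foxo3 and 8.40 for Foxo6. The Foxo3 peak of 18.6 only reached into the promoter, its summit being 1538 bp upstream, and a weaker one at 10.6 lay 39 bp downstream of a start. At Foxo6 the library 1 peak of 8.40 did not overlap that of library 2, and the one that did had 5.63. At Foxm1, a cell-cycle regulator whose promoter overlaps that of Rhno1, FGFR1 had 16.4 in library 1 and 6.69 in library 2 and RXR had 7.93 in ESCs. At Foxa3, an endodermal gene whose upstream region overlaps the promoter of Sympk, FGFR1 had 9.47 and 18.7 and RXR had 13.9 in ESCs. The FGFR1 peak of 18.7 lay 88 bp downstream of the start and did not overlap that of library 1. The library 2 peak that did was weaker and lay 845 bp upstream.

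Foxd3, a regulator of stem cells and the neural crest, is discussed by the study from these same libraries, so its values add no independent evidence. It is on chromosome 4 (chr4:99656299-99658622, plus strand) with 1 start. RXR in ESCs had 2 peaks there, at a -log10 p of 7.32 and 9.08, and FGFR1 in NC library 1 had 1, at 12.1 with 14 fragments at the summit. FGFR1 in NC library 2, FGFR1 and Nur77 in ESCs, and RXR, Nur77 and H3.3 in NCs had none. The overlap of the RXR and FGFR1 peaks starts at the start codon and is in capitals:
Foxd3, coding sequence, chr4:99656625-99656751, plus strand: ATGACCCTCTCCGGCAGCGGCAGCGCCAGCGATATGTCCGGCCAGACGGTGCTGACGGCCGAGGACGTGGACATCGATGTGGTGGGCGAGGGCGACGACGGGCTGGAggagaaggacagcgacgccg
All 3 Foxd3 peaks had their summits in coding sequence, between 363 and 621 bp downstream of the start.

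For the Sox genes, stretches shared by 3 libraries (Sox30 and Sox21), an example shared by 2 (Sox14) and the strongest FGFR1 site (Sox12) follow. They are printed in the same way. For Sox12 the bases nearest to the summit are in capitals, and the Sox21 site, which lies in a UTR, is cut to 30 bases.
Sox30, coding sequence, chr11:45981097-45981197, plus strand, shared by RXR in ESCs and Nur77 in both states: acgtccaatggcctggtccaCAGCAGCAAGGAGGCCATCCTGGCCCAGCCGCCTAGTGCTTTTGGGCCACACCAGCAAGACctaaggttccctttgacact
Sox14, coding sequence, chr9:99875052-99875214, minus strand, shared by RXR in ESCs and FGFR1 in NC library 1: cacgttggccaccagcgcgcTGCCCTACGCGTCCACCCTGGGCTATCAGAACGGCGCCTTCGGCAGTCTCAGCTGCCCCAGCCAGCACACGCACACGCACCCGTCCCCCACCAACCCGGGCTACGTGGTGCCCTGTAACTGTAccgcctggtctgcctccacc
Sox21, UTR, chr14:118236986-118237015, minus strand, shared by RXR in ESCs and both FGFR1 libraries from NCs: CACGGCCGCGGCTGGACATGCACACCCAGC
Sox12, upstream, chr2:152398720-152398820, minus strand, around the summit of FGFR1 in NC library 2: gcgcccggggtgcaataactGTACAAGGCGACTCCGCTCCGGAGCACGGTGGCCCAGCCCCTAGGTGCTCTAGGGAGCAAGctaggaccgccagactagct

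Sox30 (chr11:45980310-46017994, plus strand), which acts in male germ cells, had peaks in 4 libraries, the most of any Sox gene. Of all protein-coding genes, 10% had peaks in 4 libraries. RXR in ESCs was at a -log10 p of 15.4, Nur77 at 10.9 in ESCs and 12.4 in NCs, and FGFR1 in NC library 1 at 13.8. The RXR peak over the stretch printed above had 10.8, and the FGFR1 peak lay outside that stretch. All Sox30 peaks lay in coding sequence. The RXR value of 15.4 and the Nur77 value of 10.9 in ESCs were the strongest Sox peaks of those lists.

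Sox7, Sox11, Sox15 and Sox21 had peaks in 3 libraries each, as did 10.4% of protein-coding genes. Sox21, a repressor of the B2 group that opposes Sox3 and its kin in neural progenitors, had RXR at 13.5 in ESCs and FGFR1 at 10.6 and 17.2 in the NC libraries, all within 54 bp of the start. Sox11, a gene of young neurons, had FGFR1 at 10.2 and 13.2 and Nur77 at 9.65 in NCs. Sox15 had FGFR1 at 18.0 and 17.7, the first of which was the strongest Sox peak of library 1, and Nur77 at 9.56 in NCs. Sox7, an endodermal and vascular gene, had Nur77 at 10.7 in ESCs, and FGFR1 in library 1 at 8.80 and RXR at 10.2 in NCs.

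Related Sox genes can be set side by side in the 2 FGFR1 libraries from NCs, where 11.3% of protein-coding genes were listed in library 1 alone and 10.2% in library 2 alone. With 3 genes to a group no difference between groups was tested. The 3 genes of the C group, Sox4, Sox11 and Sox12, all had a peak in library 2, at 25.1, 13.2 and 31.5, and only Sox11 had one in library 1. The 3 genes of the F group, Sox7, Sox17 and Sox18, all had a peak in library 1, at 8.80, 9.25 and 8.88, and 0 had one in library 2. Of the E group, Sox8 had FGFR1 at 26.1 in library 2, Sox10 at 8.38 in library 1, and Sox9 had no promoter peak of any factor.

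RXR was listed in ESCs and not in NCs at 12 Fox and 5 Sox genes, against 23.1% of protein-coding genes. Examples were Foxa2, with a -log10 p of 10.7, Foxc2, with 9.92, and Sox14, with 12.2. It was listed in both states at 8 Fox and 0 Sox genes, against 19.4%, and its peaks of both states shared bases at Foxe3, Foxi2, Foxn2 and Foxp2, against 15.8%. RXR was listed in NCs alone at Foxd2, Foxn4, Sox7, Sox13 and Sox17, against 3.94%. The strongest Sox peak for RXR in NCs was at Sox13, with 10.6.

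Nur77 was listed in ESCs and not in NCs at Foxe3, Foxk1, Foxk2, Foxr2 and Sox7, against 11.4%, and in both states at Foxj3, Foxn2, Foxp1 and Sox30, against 14.0%. In NCs alone it was listed at 6 Fox genes (Foxb1, Foxi1, Foxi3, Foxl1, Foxn3 and Foxp4) and at Sox6, Sox11, Sox12 and Sox15, against 11.8%. The strongest of these at a Sox gene was at Sox12, with a -log10 p of 13.7.

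The study asked how far FGFR1 sites coincide with those of RXR and Nur77 within a state. In NCs, RXR peaks shared bases with FGFR1 peaks of library 1 at 6 Fox and 2 Sox genes, against 18% of protein-coding genes. With library 2 they did so at Foxj3 and Foxn2, against 14.7%. Nur77 peaks of NCs shared bases with FGFR1 library 1 at Foxi3, Foxj3 and Sox11, against 18.8%. With library 2 this was so at Foxi3, Foxj3 and Foxn3, against 15%. Across states, the RXR peaks of ESCs shared bases with FGFR1 peaks of NC library 1 at 13 Fox and 3 Sox genes, against 30.8% of protein-coding genes. With those of NC library 2 they did so at Foxa3, Foxi3, Foxm1, Foxn2 and Sox21, against 28.5%. RXR and Nur77 shared bases in ESCs at Foxe3, Foxk1, Foxn2 and Sox30, against 15.7%, and in NCs at Foxj3, Foxp1 and Foxp4, against 10.2%. FGFR1 was listed without RXR or Nur77 in NCs at 13 Fox and 5 Sox genes in library 1, against 19.5%, and at 8 Fox and 4 Sox genes in library 2, against 22.1%. RXR or Nur77 without FGFR1 in either NC library was listed at Foxb1, Foxi1, Foxl1 and Sox6, against 2.21%.

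Over all factors, 12 Fox and 10 Sox genes were listed in NCs and in no ESC library, against 16.4% of protein-coding genes. The Sox genes were Sox3, Sox6, Sox8, Sox10, Sox11, Sox12, Sox13, Sox15, Sox17 and Sox18. The opposite held for Foxa2, Foxc2, Foxr1 and Foxr2, listed in ESCs alone, against 2.13%. NCs have 5 libraries and ESCs 3, so the states did not have equal chances of a listing.

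10 Fox genes and 1 Sox gene had no promoter peak in any library, against 34.5% of protein-coding genes. Among them were Foxa1, Foxc1, Foxd4, Foxf2, Foxj1, Foxl2, Foxn1, Foxq1, Foxs1 and Sox9. For all but Foxj1 and Foxs1 the nearest peak of any library was between 1040 bp (Foxd4) and 2910 bp (Foxa1) from a start. Foxq1 had peaks between 1000 and 5000 bp upstream of its start in 7 libraries. At Foxn1, the nude mouse gene of the thymus, peaks within the gene were listed in 7 libraries, and 7 of those 9 peaks lay on alternating purine-pyrimidine repeats. Only Foxj1, the regulator of motile cilia, and Foxs1 had no peak within the gene or up to 5000 bp upstream, with the nearest at 15816 and 9779 bp.

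Peaks inside the genes but outside promoters were most numerous at Sox5. That gene, which spans 953553 bp, held 109 over the 8 lists, of which 67 were on alternating repeats. Foxp1 held 35, of which 8 were on such repeats, Foxn3 held 26, of which 17 were, and Sox6 held 20, of which 7 were. Foxp2, with 540629 bp, held 5 and Foxo3, with 94915 bp, held 15, and the part of gene length in these counts was not tested.

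Fox genes with more annotated starts were listed more often, as were protein-coding genes in general. FGFR1 in NC library 2 was listed at 3 of 23 Fox genes with 1 start (13%) and at 12 of 21 with more (57.1%), where all protein-coding genes stood at 22.7% and 57.4%. RXR in ESCs was listed at 30.4% and 61.9% of these Fox genes, against 20.5% and 48.8% of all protein-coding genes. For FGFR1 in NC library 1 the shares were 47.8% and 61.9%, against 26.4% and 57.7%. Sox genes had the opposite order in 5 of the 8 lists, by small counts. Of the 9 with 1 start and the 8 with more, FGFR1 in NC library 2 was listed at 5 and 2 (55.6% and 25%). FGFR1 in library 1 was at 6 and 5 (66.7% and 62.5%) and RXR in ESCs at 3 and 2 (33.3% and 25%). Nur77 was at 2 and 0 in ESCs (22.2% and 0%, against 13.2% and 29% of all protein-coding genes). In NCs it was at 3 and 2 (33.3% and 25%, against 12.3% and 29.7%). RXR in NCs was listed at 1 and 2 of them (11.1% and 25%, against 10.9% and 26.9%). A change of 1 gene would turn most of the 5 opposite orders, and the difference was not tested.

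Within promoters, the summits of many member peaks lay in coding sequence. In ESCs this was so for 16 of 41 RXR peaks (39%) and 6 of 10 Nur77 peaks (60%), where peaks at all protein-coding promoters stood at 20.1% and 21.5%. In NCs it was so for 21 of 49 peaks of FGFR1 library 1 (42.9%), 6 of 15 of RXR (40%) and 7 of 16 of Nur77 (43.8%), where all protein-coding promoters stood at 20.6%, 20.5% and 23.3%. FGFR1 library 2 differed, with 3 of 25 (12%) against 12.7%, and neither FGFR1 in ESCs nor H3.3 had such a summit at a member. Coding sequence filled a median of 17.5% of the promoter of a Fox gene and 16.7% of that of a Sox gene, against 7.91% of all protein-coding genes. As a share of all promoter bases it was 11.4% and 13% against 10.4%, a smaller gap. A single coding exon is found in 16 Fox genes (36.4%) and 6 Sox genes (35.3%), against 15.9% of protein-coding genes. The part of that gene structure in the position of the peaks was not tested.

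**Figure D4:**
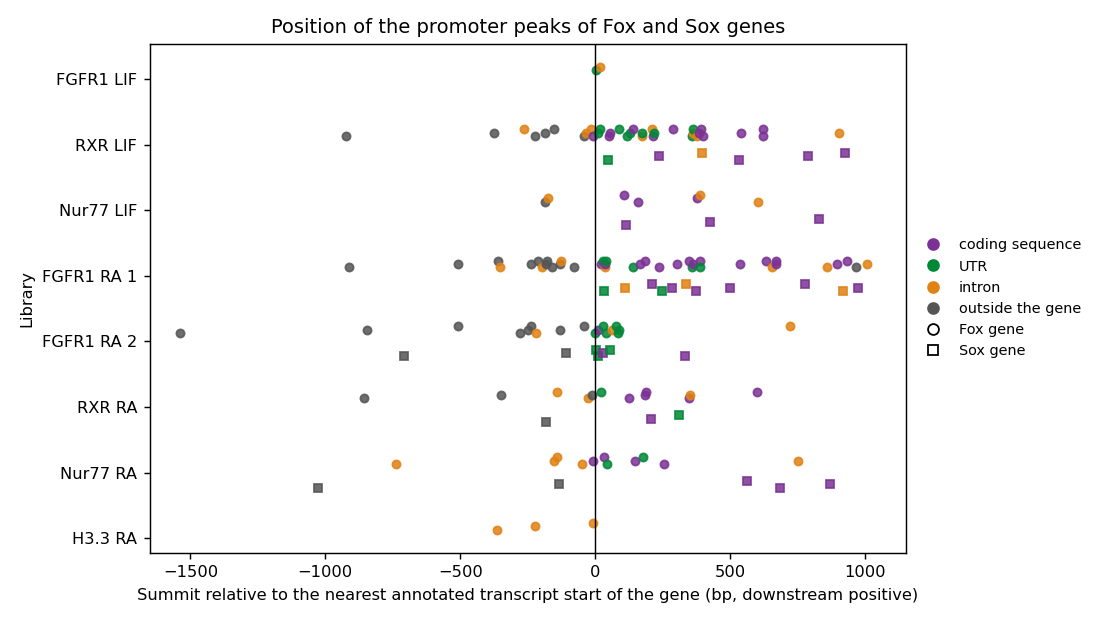
Position of the summit of each of the 161 promoter peaks relative to the nearest annotated start of its gene (bp, downstream positive), by library, with the annotated feature in colour and the family by symbol. Of the summits of FGFR1 NC library 2, 18 of 25 (72%) lie within 250 bp of the start, against 83.9% over all protein-coding promoters. In library 1 it is 22 of 49 (44.9%), against 70.7%. The Sox peaks of library 1 are all downstream.

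FGFR1 library 1 from NCs had 0 of 11 Sox summits and 13 of 38 Fox summits (34.2%) upstream of a start, against 41.3% over all protein-coding promoters. Its member summits lay at a median of 338 bp from the start, against 114 bp over all protein-coding promoters. In library 2 the medians were 88 and 58 bp. At least 1 bp was shared with a peak of another library by 88 of the 126 Fox peaks (69.8%) and 17 of the 35 Sox peaks (48.6%), against 83.5% of the 62798 peaks at protein-coding promoters. Of all 161 peaks, 22 also lay in the promoter of another protein-coding gene and 42 in that of any other annotated gene, so a peak could not always be assigned to a member alone.

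Member peaks were rich in GC, as promoter peaks in general were. In the 101 bp around the summit the median GC content over Fox and Sox peaks was between 66.3% for Nur77 in NCs and 77.7% for the 2 peaks of FGFR1 in ESCs, and that over peaks at all protein-coding promoters was between 67.3% and 71.3%. Short words were searched in these windows on both strands. TGACGTCA, the cyclic AMP response element, and GCGCATGC, the core of the NRF1 site, were in 0 of the 161 member windows, and in at most 2.15% and 4.55% of windows at all protein-coding promoters in any library. CCGGAAG, an ETS word, was in 5 windows, all at Foxm1 and Foxn2, and in at most 6.75% of all windows in any library. AGGTCA, the core word of nuclear receptors, was in 6, at Foxb2, Foxj3, Foxk2, Foxo3 and Foxr1 (at most 4.32% of all windows in any library). Among RXR peaks it was in 1 of 41 in ESCs (2.44%, against 3.98% of windows at all protein-coding promoters) and in 0 of 15 in NCs (against 3.55%). Among FGFR1 peaks of NCs it was in 3 of 49 in library 1 (6.12%, against 3.92%) and 1 of 25 in library 2 (4%, against 3.3%). The E-box CACGTG was in 5 (at most 6.64% of all windows in any library), the forkhead word TGTTTAC in 3, at Foxo3 and Foxp4 (at most 0.554%), and the Sox word ACAATG in 2, both at Foxj2 (at most 1.88%). Overlapping peaks of different libraries were each counted, as at Foxj2, Foxn2 and Foxp4, so the sites with a word are fewer than the windows. No word contains another, and a match is no more than these letters.

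The strength of member peaks relative to all promoter peaks differed by list. In the RXR list of ESCs, 39% of the 41 member peaks had a -log10 p of at least 10, against 49.1% of peaks at protein-coding promoters. In FGFR1 library 2 from NCs it was 92% of 25, against 90.6%, and in library 1 it was 61.2% of 49, against 67.6%. For Nur77 it was 50% of 10 in ESCs, against 44.4%, and 37.5% of 16 in NCs, against 49.4%, and for RXR in NCs 33.3% of 15, against 43.4%. FGFR1 in ESCs had 0 of 2, against 55.7%, and H3.3 33.3% of 3, against 44.5%. Member peaks had between 5 and 52 fragments at the summit, the most being at Sox12 in FGFR1 library 2, and outside that library none had more than 20, so that few fragments decide whether a gene was listed.

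**Figure D5:**
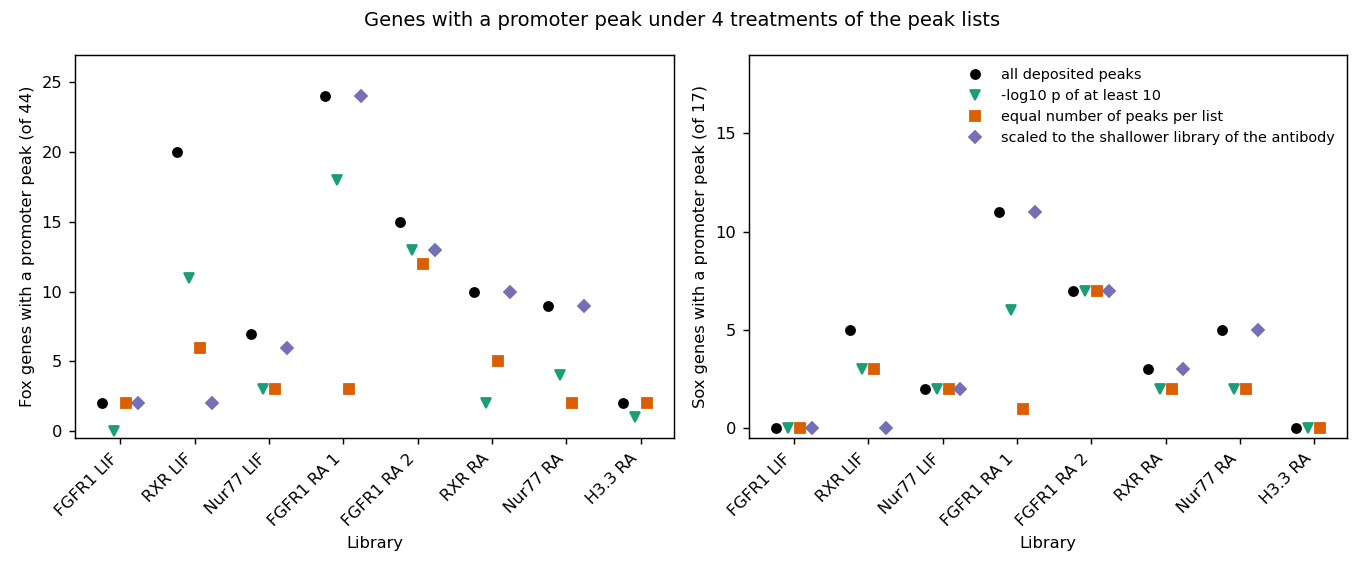
Number of Fox genes (left, of 44) and Sox genes (right, of 17) with a promoter peak in each library with all deposited peaks, with those of -log10 p of at least 10, with an equal number of the strongest peaks and with fragments scaled to the shallower library of the same antibody (not made for H3.3). The count for RXR in ESCs goes from 20 to 2 Fox genes with the last, and that for FGFR1 NC library 1 from 24 to 3 with an equal number of peaks.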

How the data were processed

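ChIP-seq peak lists of 8 libraries were used. The authors aligned reads to mm10 with Bowtie 1.0 and called peaks with MACS2 on each library, with no control named in the sources used here. The lists deposited by the authors give a display score, the fold (a ratio of enrichment at the summit), the -log10 p and the -log10 q of each peak, and the summit, and the lowest -log10 p is above 5. Fragments at the summit and the background were solved from the deposited fold and -log10 p under a Poisson model, which fitted 100% of peaks within 0.002 and was tested on simulated peaks. Depth as such is not in the lists and is inferred from that background.

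Starts came from GENCODE M21 and sequence from RefSeq GRCm38.p6. Distances are to the nearest start of the gene. Words were searched in 101 bp around summits. Python 3.11.15, numpy 2.4.6 and scipy 1.17.1 were used. No test between groups was made, because all groups but FGFR1 in NCs have 1 library. The libraries labelled as FGFR1 in NCs are called 1 and 2 (the second is labelled as a second experiment).

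Genes described singly were, by rule, those with peaks in the most libraries of each family, those with FGFR1 in ESCs or with overlapping FGFR1 peaks in both NC libraries, those with the strongest peak of a list, those with no promoter peak, and Foxd3; other genes serve as examples, and 1 gene is not reported by name here. The genes and lists were chosen with earlier results of these data known. Alternatives were a stricter p, equal numbers of peaks, a promoter of 500 bp, peaks without alternating repeats, 1 start per gene, other rules for shared peaks, leaving out each FGFR1 library from NCs, and, chosen after seeing the data, scaling fragments to the lower inferred background of each antibody.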

Additional observations from a re-analysis of the deposited data

Results flagged for a closer look

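From ESCs to NCs the number of Fox genes with RXR changed by -10 and that of Sox genes by -2, while both FGFR1 libraries changed the other way, by 22 and 13 Fox genes and by 11 and 7 Sox genes, and Nur77 by 2 Fox and 3 Sox genes. These were set apart because the factors moved in opposite directions in the lists as deposited. With fragments scaled to the lower background, RXR stood at 2 Fox and 0 Sox genes in ESCs and at 10 and 3 in NCs, the same direction as FGFR1. The shares of all protein-coding genes for RXR were then 7.39% in ESCs and 23.3% in NCs. With 1 library for most groups the difference between factors was not tested, and all protein-coding genes showed the same directions in the deposited lists.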

How the results depend on the processing

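Peaks of -log10 p of at least 10 left Fox counts of 0 (FGFR1), 11 (RXR) and 3 (Nur77) in ESCs and of 2 (RXR), 4 (Nur77) and 1 (H3.3) in NCs, and Sox counts of 3 (RXR, ESCs), 6 (FGFR1 library 1) and 2 (Nur77, NCs). The shares of all protein-coding genes were 9.81% (FGFR1), 25.3% (RXR) and 12.4% (Nur77) in ESCs. In NCs they were 40.6% (FGFR1 library 1), 10.9% (RXR), 14% (Nur77) and 7.17% (H3.3). Equal numbers of peaks left 6 (RXR) and 3 (Nur77) Fox genes in ESCs and 3 (FGFR1 library 1), 5 (RXR) and 2 (Nur77) in NCs, and Sox counts of 3 (RXR, ESCs), 1 (FGFR1 library 1) and 2 (Nur77, NCs). Of all protein-coding genes, 16% (RXR) and 10.9% (Nur77) were then listed in ESCs. In NCs these shares were 18.9% (FGFR1 library 1), 14.5% (RXR) and 9.28% (Nur77). These settings keep fewer peaks by construction. Scaling fragments to the lower background of each antibody, chosen after seeing the data, matches that value alone and not peak width or fragment length. It left RXR in ESCs at 2 Fox and 0 Sox genes and 12 of 14 counts within 1.5 times. A promoter of 500 bp left Nur77 in NCs at 1 Sox gene, 1 start per gene (the outermost) left FGFR1 in ESCs at 1 and H3.3 at 0 Fox genes, and leaving out alternating repeats left H3.3 at 1. The cause of these last changes is the smaller region or list. FGFR1 in NCs ranged from 15 to 24 Fox and from 7 to 11 Sox genes with either library alone. Genes with overlapping FGFR1 peaks numbered 8 or 9 Fox and 1 Sox gene under each rule for sharing. No paired analysis was possible because the results come from no test. Counts near the limit of the caller rest on few fragments, and a gene with no listed peak may lie under that limit.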
